A study of Mus musculus with 2 samples.

Results

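The 8 genes described here encode the colony-stimulating factors Csf1 and Csf2 and the receptor chains Csf1r, Csf2ra, Csf2rb, Csf2rb2, Csf3r and Flt3. They were taken from the gene symbols of the count matrices by name, as 8 of 31053 genes, and not for how they differed between the libraries. Earlier results of these data were known when they were chosen. Both libraries came from adult Gli1creERT/Hhipflo/flox mice, in which the Gli1 gene, active in Hedgehog-responsive mesenchymal cells, drives a tamoxifen-inducible Cre recombinase and Hhip, which encodes an inhibitor of Hedgehog ligands, is floxed. The control library came from mice injected with oil, which carry the same alleles, and the other from mice injected with tamoxifen. Live lung cells that carried CD45 and had not been reached by a CD45 antibody in the bloodstream were sorted, so that mesenchymal cells, the only ones meant to lose Hhip, were mostly left out. With 1 library per group, no difference has a replicate check, the number of animals is not given in the labels, and treatment and library cannot be told apart.

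Csf1 acts through Csf1r and keeps most tissue macrophages alive. Csf2, also called GM-CSF, binds the ligand-specific chain Csf2ra, which signals with the shared beta chain Csf2rb, and it is required for the maturation of alveolar macrophages. Csf2rb2 is the mouse paralogue of the beta chain that serves the interleukin-3 receptor, Csf3r is the G-CSF receptor of neutrophils, and Flt3 is the receptor through which Flt3 ligand drives dendritic cell development. Signals from Csf2rb pass through Jak2 and Stat5, and PU.1, encoded by Spi1, is a myeloid transcription factor known to bind promoters of this receptor family.

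Promoter sequence was available for 6 of the 8 genes in RefSeq on GRCm38.p6, and Csf1r and Csf2rb had no entry. The 200 bases before each start were searched on both strands for GAGGAA, the core of PU.1-type motifs. It was found in 3 of the 6, all of them receptor genes of myeloid cells (Csf2ra, Csf2rb2 and Csf3r), and not in Csf1, Csf2 or Flt3. Of all 32851 windows of that length, 19.0% held it. A second motif, GGAAA, was also searched, and was found in 4 of the 6 and in 47.6% of all windows. The 3 windows with GAGGAA are shown as the receptor promoters that hold those letters. Csf1 and Flt3, whose windows do not, were also highest in neutrophils or dendritic cells. Capitals mark GAGGAA or its complement TTCCTC, and each sequence runs 5′ to 3′ on the strand of its gene up to the base before the RefSeq start.
Csf2ra (chr19:61228419-61228618, minus strand): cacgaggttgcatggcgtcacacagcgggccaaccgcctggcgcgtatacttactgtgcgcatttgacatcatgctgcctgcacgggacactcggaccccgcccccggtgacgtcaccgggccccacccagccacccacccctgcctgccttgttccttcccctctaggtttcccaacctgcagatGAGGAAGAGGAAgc
Csf2rb2 (chr15:78305722-78305921, minus strand): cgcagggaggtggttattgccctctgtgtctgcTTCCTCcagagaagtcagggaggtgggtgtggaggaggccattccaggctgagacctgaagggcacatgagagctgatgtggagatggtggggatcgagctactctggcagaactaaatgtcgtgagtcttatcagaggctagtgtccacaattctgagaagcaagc
Csf3r (chr4:126024459-126024658, plus strand): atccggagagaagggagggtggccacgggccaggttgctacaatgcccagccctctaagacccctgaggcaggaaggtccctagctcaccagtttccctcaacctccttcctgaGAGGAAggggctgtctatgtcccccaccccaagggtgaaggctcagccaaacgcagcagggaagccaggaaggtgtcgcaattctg
Csf2ra held 2 adjoining copies, which began 14 and 8 bases before the start. The copy in Csf3r began 86 bases before it, and the one in Csf2rb2 lay on the opposite strand at 167. GENCODE M21 places the starts of Csf3r and Csf2ra further upstream, at 126024550 and 61228429, inside these windows. By that annotation the Csf3r copy and the Csf2ra copy at 8 bases lie within the genes and not before them. For Csf2 the GENCODE start is at 54249667, and the window searched (54249900 to 54250099) does not adjoin it. A match of letters is a description and not evidence of binding.

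Barcodes numbered 10342 in oil, with 57704412 UMIs, and 12980 in tamoxifen, with 83730550. Barcodes with at least 300 genes and under 10% mitochondrial UMIs numbered 6794 and 10138, with medians of 6360.5 and 6431 UMIs. Of the barcode sequences, 41 occurred in both libraries. Cells with female-specific and with male-specific transcripts were present in both, at 3714 and 1413 in oil and 6156 and 1679 in tamoxifen. Hhip had 40 and 29 UMIs in kept cells, of which 24 and 23 lay in the fibroblast gate described next, which checks nothing about deletion in mesenchyme that the sort left out.

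Cells were placed in 15 gates by the UMIs of 1 to 3 genes each, 10 main gates and 5 added for cells these did not cover. Several gates went against their names. Of the cells that passed the ILC2 gate (Il1rl1 without Cd3), 67.8% in oil and 77.7% in tamoxifen also passed another gate, Gata3, the defining factor of these cells, was found in 29.0% and 19.5%, and the antigen-presentation gene H2-Ab1 in 74.7% and 79.9%. In the cDC2 gate (Mgl2 or Cd209a) 92.9% and 92.4% also passed another gate, and in the alveolar macrophage gate of oil Flt3, a dendritic cell gene, was found in 28.6% of cells and the alveolar macrophage marker Fabp1 in 49.6%. Each cell was therefore also assigned, after these values had been seen, to the gate whose fixed markers it showed in the largest share, with UMIs of at least 2 of them. This placed 5208 oil cells (76.7%) and 8350 tamoxifen cells (82.4%), which are called marker-supported or "-like" cells. Values are those of marker-supported cells unless the whole gate is named. The mast or basophil gate held 15 oil and 2 tamoxifen cells, and none of the oil cells had Gata2 or Cyp11a1, so it is named here by its genes Cpa3, Mcpt8 and Ms4a2.

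The genes lie apart on GRCm38, except for the beta chains, which are neighbours (GENCODE M21, all protein-coding). Csf1 (ENSMUSG00000014599) is on chromosome 3 at 107741048 to 107760469 and Csf2 (ENSMUSG00000018916) on chromosome 11 at 54247271 to 54249667, both on the minus strand. Csf1r (ENSMUSG00000024621) is on chromosome 18 at 61100598 to 61132149 on the plus strand, and Csf2ra (ENSMUSG00000059326) on chromosome 19 at 61223957 to 61228429 on the minus strand. On chromosome 15, Csf2rb (ENSMUSG00000071713) lies at 78325752 to 78353847 on the plus strand and Csf2rb2 (ENSMUSG00000071714) at 78282507 to 78305721 on the minus strand. Csf3r (ENSMUSG00000028859) is on chromosome 4 at 126024550 to 126044440 on the plus strand and Flt3 (ENSMUSG00000042817) on chromosome 5 at 147330741 to 147400489 on the minus strand.

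Levels are UMIs of a gene scaled to 1000000 UMIs of the cells summed (CPM), and ratios are log2 of tamoxifen over oil, with exact 95% Poisson-based intervals that cover counting error only. Such UMIs count 3′ ends, with no term for length, so levels are compared for 1 gene between cells and not between genes. In summed counts, fewer cells of a type and less RNA per cell cannot be told apart.

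Over all kept cells, the ligand Csf2 was lower with tamoxifen and the beta chains and Csf3r were higher. Csf2 went from 1051 UMIs (19.8 CPM) to 855 (10.7 CPM), a log2 ratio of -0.89 (-1.02 to -0.75). Csf2rb went from 110 to 185 CPM (0.75, 0.71 to 0.79), Csf2rb2 from 19.9 to 34.6 CPM (0.79, 0.69 to 0.90) and Csf3r from 10.2 to 20.5 CPM (1.01, 0.87 to 1.15). Flt3 was at 38.3 and 25.5 CPM (-0.59), Csf1r at 148 and 125 CPM (-0.24), Csf2ra at 145 and 152 CPM (0.07) and Csf1 at 11.9 and 11.6 CPM (-0.04). The mix of cells moved at the same time. Alveolar macrophage-like cells made up 4.47% of kept cells in oil and 21.0% in tamoxifen, and held 17.4% and 57.0% of all Csf2rb UMIs. ILC2-like cells made up 2.97% (2.58 to 3.41) and 0.592% (0.452 to 0.761), and held 21.4% and 5.50% of the Csf2 UMIs.

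A difference was called where it was at least 2-fold with at least 20 UMIs over both libraries, which is a rule of size and not a test. In the 10 main gates, 20 of 75 pairs of a gene and a gate passed (14 higher and 6 lower with tamoxifen), against 7.49% of all pairs of a gene and a gate (4.42% higher and 3.07% lower). Among marker-supported cells 19 of 60 did (16 higher and 3 lower), against 7.33% (4.18% higher and 3.15% lower). Of those 19, 7 lay in Il17a+ T cells, where 11.5% of all genes passed, and 4 in Trdc+ T cells, where 8.29% did. In alveolar macrophage-like cells 2 of 8 genes passed (7.1% of all genes), and in C1q macrophage-like cells 0 of 8 (4.67%).

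**Figure D1:**
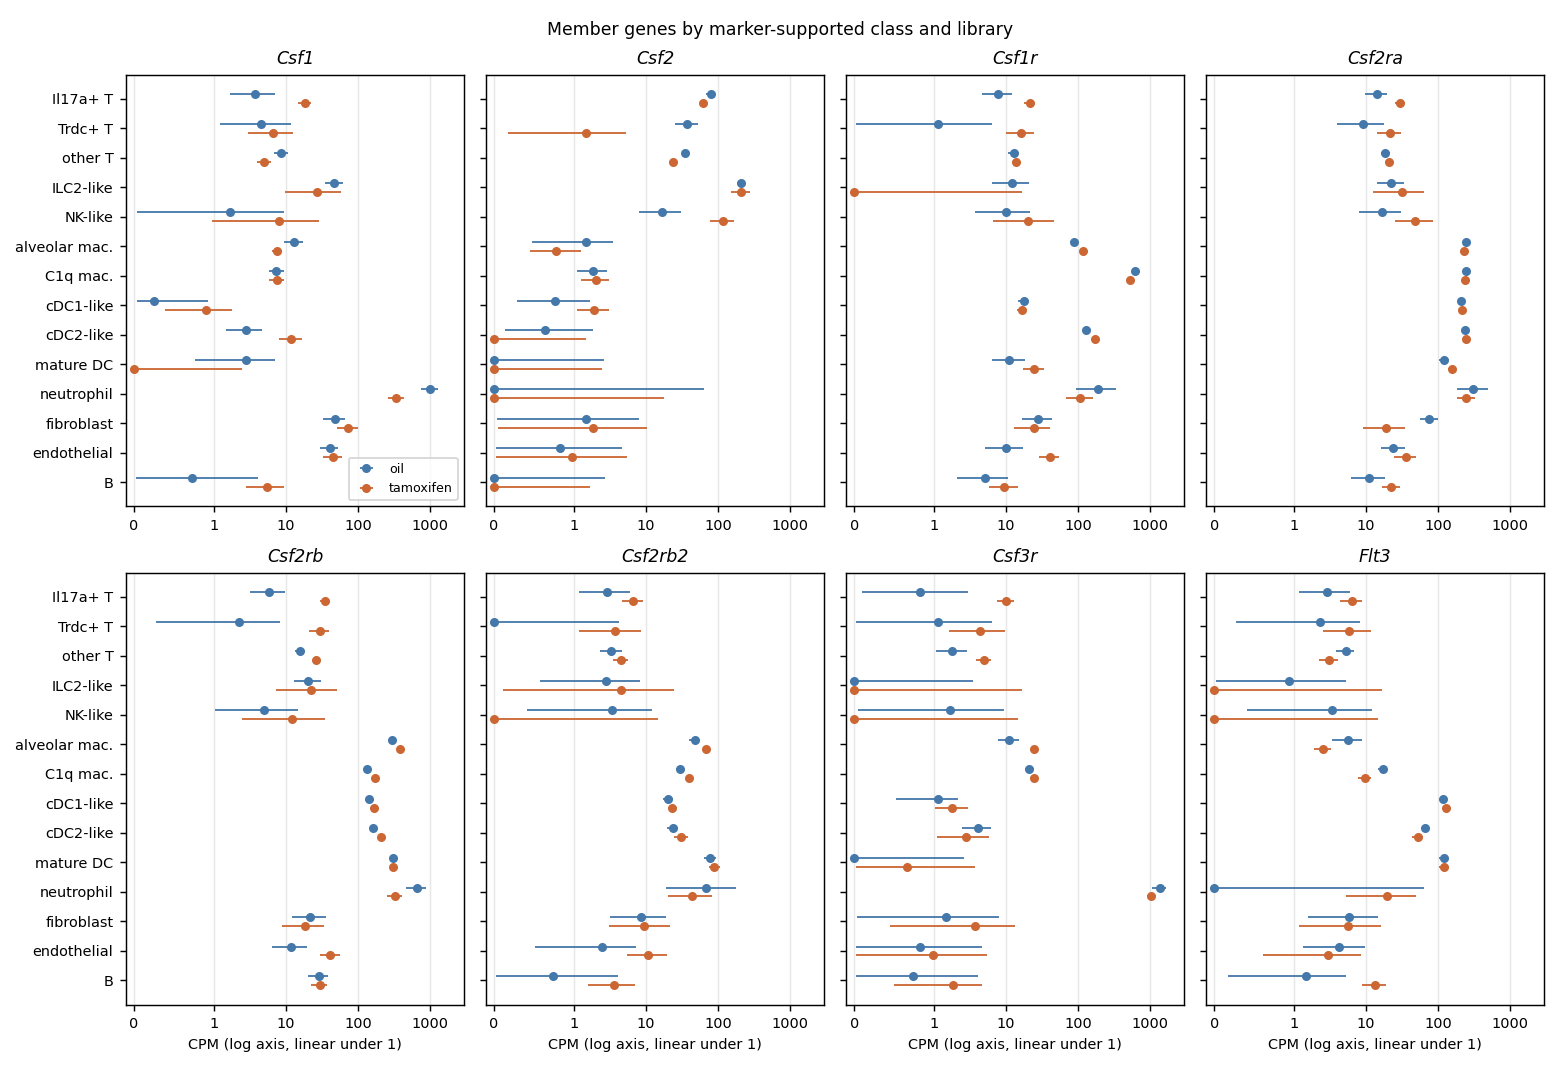
Levels of the 8 genes in marker-supported cells of each type, in CPM on a log axis that is linear under 1. Points are the oil and tamoxifen libraries (1 each) and bars exact 95% Poisson intervals; Csf2 is highest in ILC2-like cells, at 209 CPM in both libraries, the Csf2 and Csf1 receptors sit in the myeloid rows, and Csf3r is above 1000 CPM in neutrophils of both libraries.

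Csf2 was a product of few lymphoid cells. In ILC2-like cells, innate lymphocytes that make interleukin-5 and interleukin-13, it stood at 209 CPM in oil (225 UMIs in 44 of 202 cells) and 209 CPM in tamoxifen (47 UMIs in 11 of 60 cells), a log2 ratio of -0.00 (-0.49 to 0.46). The share of these cells with a Csf2 UMI was 21.8% and 18.3%, and after thinning each cell to 1500 UMIs 9.34% and 13.2%. The tamoxifen level rested on few cells, since 1 cell held 18 of the 47 UMIs and 3 cells held 70.2%. In oil 3 cells held 37.3%. Level and share thus did not differ beyond counting error, while the number of ILC2-like cells did. The whole Il1rl1 gate gave another picture, with 31.1 CPM in oil and 13.6 CPM in tamoxifen (-1.19, -1.66 to -0.74). The gate's cells with 2 or more ILC2 markers were 30.4% and 23.2%, so the makeup of the gate moved with its Csf2 level.

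In T cells with at least 3 Il17a UMIs, a type 17 population that is 1 source of Csf2 in tissue, the level was 79.5 CPM in oil and 62.4 CPM in tamoxifen (-0.35, -0.61 to -0.09) among marker-supported cells. A Csf2 UMI was found in 46 of 334 of them (13.8%, 10.3 to 17.9 by the Clopper-Pearson method) and in 65 of 831 (7.82%, 6.09 to 9.86). Thinning left 6.40% and 3.72%. These shares compare with 0 of 155 and 0 of 281 B-like cells, which allow up to 1.94% and 1.07% of cells with a UMI, at median depths of 6731 and 6115 UMIs against 6831 and 5705 in the T cells. With 334 and 831 such cells, they held 18.5% of all Csf2 UMIs in oil and 40.7% in tamoxifen. Csf2 was the only 1 of the 8 members with a lower level in them with tamoxifen.

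The Trdc+ T cells, which carry transcripts of the delta T cell receptor chain, gave the largest Csf2 ratio of the marker-supported types. Csf2 had 33 UMIs in 10 of 155 marker-supported cells in oil (37.3 CPM) and 2 UMIs in 2 of 236 cells in tamoxifen (1.46 CPM), a log2 ratio of -4.67 (-7.78 to -2.70). In oil, 3 cells held 69.7% of these UMIs. The share of cells with a UMI was 6.45% (3.14 to 11.5) and 0.847% (0.103 to 3.03). The remaining T cells stood at 35.1 and 23.6 CPM (-0.57, -0.79 to -0.35), with a UMI in 111 of 1623 and 108 of 2506 cells. The whole gate of remaining T cells passed 2-fold, at -1.07 (-1.26 to -0.88).

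NK-like cells went the other way, from 16.7 CPM (10 UMIs in 6 of 124 cells) to 117 CPM (29 UMIs in 5 of 45 cells). The intervals, 8.02 to 30.8 and 78.1 to 168 CPM, did not overlap. Of the 29 UMIs, 93.1% lay in 3 cells, and the shares of cells with a UMI, 4.84% (1.80 to 10.2) and 11.1% (3.71 to 24.1), overlapped. In the whole NK gate the log2 ratio was 0.19 (-0.50 to 0.87). The 15 oil cells of the Cpa3, Mcpt8 and Ms4a2 gate held 62 Csf2 UMIs in 5 cells, 41 of them in 1 cell. Of those 15 cells, 12 had Gata3 and 11 also passed the Il1rl1 gate. Macrophage-like and dendritic-like cells were at or under 2.02 CPM in both libraries. The whole alveolar macrophage gate had 6.24 CPM in oil, where 1 cell held 18 of 39 UMIs, and 0.984 CPM in tamoxifen (-2.66, -3.43 to -1.92). The order of Csf2 levels was ILC2-like, Il17a+ T, then Trdc+ and other T cells in oil, of which the last pair did not differ beyond counting error, and ILC2-like, NK-like, Il17a+ T, then other T cells in tamoxifen, where the intervals of the first pair overlapped.

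**Figure D2:**
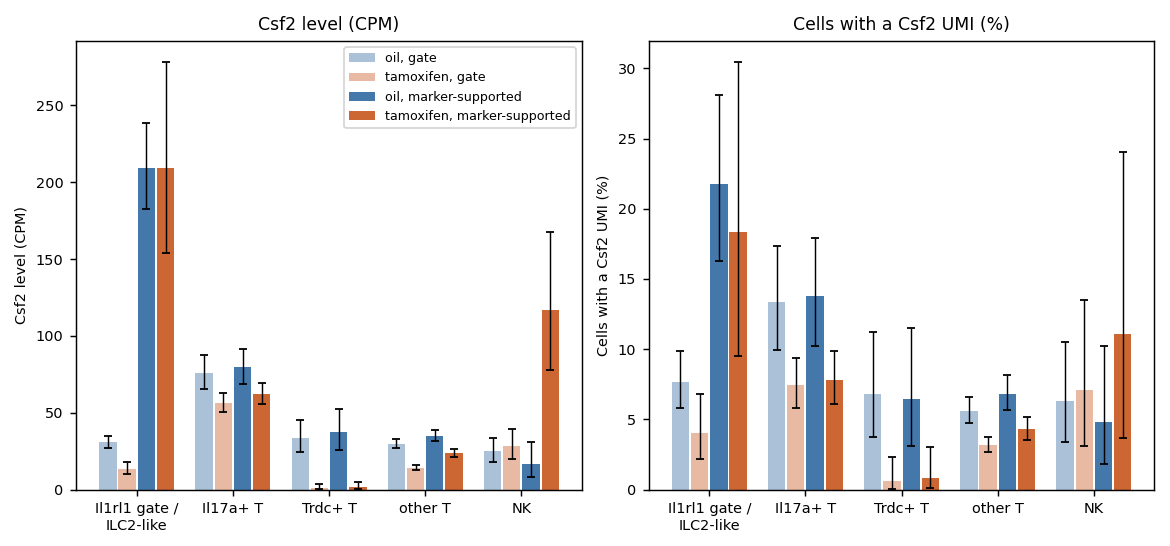
Csf2 level (left, CPM) and percentage of cells with a Csf2 UMI (right) in lymphoid gates and in their marker-supported cells, with exact 95% Poisson (left) and Clopper-Pearson (right) intervals. The pale bars of the Il1rl1 gate fall from 31.1 to 13.6 CPM, while the dark bars of its ILC2-like cells both stand at 209 CPM.

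Csf1 had a different set of sources. Neutrophil-like cells had the highest level, 998 CPM in oil (58 UMIs in 9 of 23 cells) and 341 CPM in tamoxifen (70 UMIs in 21 of 50 cells), a ratio of -1.55 (-2.07 to -1.02). The share of cells with a UMI was 39.1% (19.7 to 61.5) and 42.0% (28.2 to 56.8), and 3 of the 23 oil cells held 67.2% of the UMIs. The lower summed level thus came with shares of positive cells that overlapped. The background in B-like cells was 1 of 155 (0.645%) and 9 of 281 (3.20%).

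In fibroblast-like cells Csf1 was at 47.6 CPM in oil (33 UMIs in 19 of 70 cells) and 72.4 CPM in tamoxifen (39 UMIs in 20 of 59 cells). The ratio was 0.61 (-0.10 to 1.32), and in the whole fibroblast gate 33.3 and 63.9 CPM gave 0.94 (0.33 to 1.56). Endothelial-like cells were at 40.5 and 45.1 CPM (0.15, -0.46 to 0.76). ILC2-like cells had 46.5 CPM (50 UMIs in 40 of 202 cells) and 26.7 CPM (6 UMIs in 6 of 60), with intervals that overlapped. Intervals of these 3 types overlapped in oil, and no order among them can be given.

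In Il17a+ T cells Csf1 was higher with tamoxifen. The level was 3.69 CPM in oil (9 UMIs in 5 of 334 cells) and 18.3 CPM in tamoxifen (102 UMIs in 64 of 831 cells), a ratio of 2.31 (1.33 to 3.48). The share of positive cells was 7.70% (5.98 to 9.73) in tamoxifen and had an upper bound of 3.46% in oil, and thinned shares were 0.610% and 2.60%. In tamoxifen 1 cell held 15 of the 102 UMIs. Marker-supported male cells held 1 Csf1 UMI in oil and 2 in tamoxifen (0.51, -3.75 to 6.40), too few to show a direction. Other T cells were at 8.56 and 4.99 CPM (-0.78, -1.25 to -0.31), but the whole gate gave -0.13 (-0.42 to 0.15) and marker-supported male cells 1.51 (-0.09 to 3.53). In tamoxifen 10 of 831 Il17a+ T cells had both Csf1 and Csf2, 54 only Csf1 and 55 only Csf2. Csf2 was thus found in 15.6% of cells with Csf1 and 7.17% of those without, with no matching for depth. Among ILC2-like cells 8 of 202 in oil and 3 of 60 in tamoxifen had both.

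Alveolar macrophage-like cells had Csf1 at 13.0 and 7.54 CPM (-0.78, -1.27 to -0.27), and the whole gate gave -0.25 (-0.69 to 0.22). The direction turned in male cells, at 1.65 (0.28 to 3.36) in marker-supported cells. Cells in no gate, with medians of 1062 and 1114 UMIs, held 20.2% and 17.8% of all Csf1 UMIs and 17.2% and 14.1% of those of Csf3r. Of the ungated cells with a Csf3r UMI, 48.6% in oil and 62.9% in tamoxifen also had S100a8 or S100a9, genes of neutrophil granule proteins, against 4.48% and 22.9% of those without.

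Csf1r marked the C1q macrophages. In C1q macrophage-like cells it was at 621 CPM in oil (605 to 636) and 522 CPM in tamoxifen (508 to 536), a ratio of -0.25 (-0.30 to -0.20), and it was found in 95.8% and 94.6% of them. In other T cells, the background used for receptors, a UMI was found in 2.96% of 1623 and 3.27% of 2506 cells, at median depths of 5794 and 5321.5 UMIs against 8265 and 8968. Alveolar macrophage-like cells went in the opposite direction, from 86.7 to 119 CPM (0.45, 0.28 to 0.63), with a UMI in 51.3% and 58.4% of cells, or 10.8% and 14.2% after thinning. In marker-supported male cells that ratio was 0.17 (-0.29 to 0.65). cDC2-like cells were at 130 and 170 CPM (0.38, 0.20 to 0.56), while the whole cDC2 gate was at 284 and 268 CPM (-0.08, -0.14 to -0.03). cDC1-like cells were at 17.7 and 16.7 CPM (-0.08, -0.43 to 0.26), while the whole cDC1 gate gave 0.71 (0.45 to 0.98). The direction in both dendritic types thus depended on which cells were counted. Neutrophil-like cells stood at 189 and 107 CPM from 11 and 22 UMIs. The level was thus several times higher in C1q macrophages than in the next macrophage or dendritic type of either library.

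Csf2ra was nearly level across 4 myeloid types and between the libraries. It stood at 240 and 226 CPM in alveolar macrophage-like cells (-0.09, -0.20 to 0.02), 246 and 239 CPM in C1q macrophage-like cells, 207 and 212 CPM in cDC1-like cells, and 240 and 244 CPM in cDC2-like cells. The ratios of these 4 types ran from -0.09 to 0.03, each with an interval that included 0. Mature dendritic-like cells were lower, at 122 and 156 CPM (0.35, 0.07 to 0.64), and their whole gate gave -0.06 (-0.17 to 0.05). A UMI was found in 83.2% and 80.3% of alveolar macrophage-like cells against 6.22% and 6.74% of other T cells. In fibroblast-like cells Csf2ra went from 75.0 CPM (52 UMIs in 17 of 70 cells) to 18.6 CPM (10 UMIs in 5 of 59 cells), and 1 oil cell held 16 of the 52. The whole fibroblast gate gave -0.53 (-1.02 to -0.04).

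Csf2rb, by contrast, was higher with tamoxifen in 4 of the 5 types of macrophage and dendritic cell. Alveolar macrophage-like cells went from 300 CPM (282 to 320) to 383 CPM (375 to 391), a ratio of 0.35 (0.26 to 0.45), and the share with a UMI from 82.9% to 88.3%, or 30.4% to 40.6% after thinning. C1q macrophage-like cells were at 135 and 170 CPM (0.34, 0.24 to 0.44), cDC1-like cells at 141 and 169 CPM (0.25, 0.14 to 0.37) and cDC2-like cells at 164 and 209 CPM (0.35, 0.19 to 0.51). Mature dendritic-like cells stood at 305 CPM in both (0.00, -0.19 to 0.19). Neutrophil-like cells had 654 and 327 CPM from 38 and 67 UMIs, and their whole gate gave 0.14 (-0.28 to 0.57). The median ratio of all genes in these 5 types ran from 0.01 to 0.06. The whole alveolar macrophage gate gave 246 and 356 CPM (0.53, 0.45 to 0.61), or 0.42 under median-of-ratios scaling, which moved all genes of that gate by -0.12. In male cells alone the gate's ratio was 0.17 (-0.03 to 0.37). Marker-supported male cells gave 0.18 (-0.03 to 0.39) in C1q macrophages, 0.01 (-0.20 to 0.21) in cDC1 and 0.58 (0.29 to 0.87) in cDC2, so the cDC1 difference was found in female cells (0.47, 0.32 to 0.62). Over the main gates the interval of Csf2rb lay above 0 in 10 of 10. That of Csf2rb2 did in 7 of 10, and that of Csf3r in 6 of the 7 gates with enough UMIs. These gates share cells, and no such count over all genes is given here to set beside these. Among marker-supported types with enough UMIs the count for Csf2rb was 7 of 9, and fibroblast-like cells gave -0.22 (-1.54 to 1.03).

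The 2 chains of the Csf2 receptor were often found in 1 cell. In alveolar macrophage-like cells both had UMIs in 225 of 304 oil cells (74.0%) and 1584 of 2127 tamoxifen cells (74.5%), and in C1q macrophage-like cells in 43.4% and 52.2%. Of alveolar macrophage-like cells with Csf2ra, 88.9% and 92.8% had Csf2rb, against 52.9% and 70.2% of those without, without matching cells for depth. Of the 44 Csf2-positive ILC2-like cells in oil, 2 had a Csf2rb UMI.

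Csf2rb2 lies beside Csf2rb on chromosome 15. Of the 50-base words of its longest GENCODE transcript, 19.0% also occur in Csf2rb, but 0 of the 451 in its last 500 bases do, where 3′ reads are expected; reads from shared stretches were not tested and the split is uncertain to that extent. Csf2rb2 went from 47.2 to 68.4 CPM in alveolar macrophage-like cells (0.53, 0.30 to 0.78) and from 29.5 to 39.9 CPM in C1q macrophage-like cells (0.43, 0.21 to 0.66). It was at 78.0 and 88.8 CPM in mature dendritic-like cells (0.19, -0.19 to 0.56), its highest level in both libraries, although the intervals of neutrophil-like cells overlapped it in both. Its share of the pair's UMIs was 13.6% and 15.1% in alveolar macrophage-like cells, 12.4% and 12.1% in cDC1-like cells, and 20.4% and 22.5% in mature dendritic-like cells. That share differed more between cell types than between libraries.

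**Figure D3:**
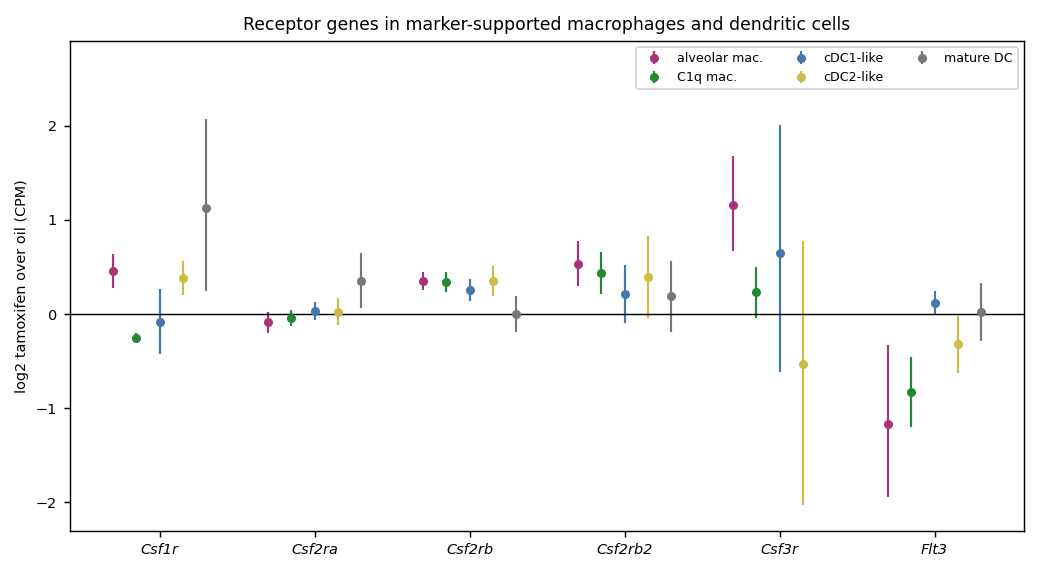
Log2 ratio of tamoxifen over oil for the 6 receptor genes in marker-supported macrophages and dendritic cells, where both libraries together had at least 20 UMIs. Points are ratios of CPM (1 library each) and bars exact 95% intervals from counting error; Csf2ra lies within 0.1 of 0 in 4 of 5 types, while Csf2rb is at 0.25 to 0.35 in the same 4.

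Csf3r was a neutrophil gene in both libraries. Neutrophil-like cells had 1359 CPM in oil (79 UMIs in 19 of 23 cells) and 1048 CPM in tamoxifen (215 UMIs in 45 of 50 cells), a ratio of -0.38 (-0.75 to 0.02). The next highest were C1q macrophage-like cells, at 21.0 and 24.6 CPM, the latter overlapping alveolar macrophage-like cells of the same library. Alveolar macrophage-like cells went from 10.9 CPM (37 UMIs in 31 of 304 cells) to 24.3 CPM (534 UMIs in 410 of 2127 cells), a ratio of 1.15 (0.67 to 1.68), and 0.43 (-0.79 to 1.80) in male cells. Their share of positive cells was 10.2% and 19.3%, or 1.69% and 3.31% after thinning, against 0.739% and 1.28% of other T cells, or 0.0645% and 0.493% thinned. Neutrophil markers moved with it: all 5 were higher in the alveolar macrophage-like cells of tamoxifen, summing to 42.8 and 71.3 CPM. At least 2 of them were found in 5.85% of Csf3r-positive and 4.78% of Csf3r-negative tamoxifen cells of that type, and the top cell held 5 of the 534 UMIs.

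Flt3 was close between the libraries in cDC1-like and mature dendritic-like cells, with female and male cells pooled. cDC1-like cells were at 117 and 127 CPM (0.11, -0.01 to 0.24) with a UMI in 77.3% and 75.8%, and mature dendritic-like cells at 119 and 121 CPM (0.02, -0.29 to 0.33). cDC2-like cells were lower in both libraries, at 65.2 and 52.2 CPM (-0.32, -0.63 to -0.02), while the whole cDC2 gate gave 57.6 and 57.5 CPM. The background in other T cells was 1.48% and 0.958% of cells. In the alveolar macrophage gate Flt3 was at 54.9 and 20.9 CPM (-1.39, -1.59 to -1.19), with -2.22 in female and 0.68 (0.23 to 1.16) in male cells, but marker-supported cells held only 5.60 and 2.50 CPM, so most of the gate's Flt3 lay in cells outside the marker-supported set. C1q macrophage-like cells had 16.9 and 9.51 CPM (-0.83, -1.20 to -0.46). Csf1r and Flt3, often used to part macrophages from dendritic cells, were found together in 100 of 313 cDC2-like cells in oil and 39 of 174 in tamoxifen.

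Receptor genes were also higher with tamoxifen in Il17a+ T cells, and macrophage and neutrophil genes were higher there with them. In marker-supported Il17a+ T cells 7 of the 8 members were at least 2-fold higher with tamoxifen, against 9.5% of all genes in that direction. Csf2rb went from 5.74 CPM (14 UMIs in 8 of 334 cells) to 34.4 CPM (192 UMIs in 55 of 831 cells), Csf1r from 7.79 to 21.2 CPM, Csf2ra from 13.9 to 29.4 CPM and Csf3r from 2 to 56 UMIs, a log2 ratio of 3.61 (1.69 to 6.70). In the same cells all 7 alveolar macrophage markers were higher, summing to 24.6 CPM in oil, where 1 of them was at 0, and 561 CPM in tamoxifen. All 5 neutrophil markers were higher too, at 21.7 and 798 CPM in sum. Of the tamoxifen Il17a+ T cells with a Csf2rb UMI 45.5% carried at least 2 alveolar macrophage markers, against 4.38% of those without, and their median depth was 12731 UMIs against 5546.5. The values for Csf1r were 48.9% and 4.59%, and for Csf2ra 42.0% and 3.94%. The rise was not limited to Il17a+ T cells. In Trdc+ T cells Csf2rb went from 2 UMIs in oil to 40 in tamoxifen (log2 ratio 3.70). Csf1r went from 1 to 22 UMIs there (3.83) and Csf2ra from 8 to 29 (1.23). The intervals of these ratios were wide and lay above 0, and the other receptor genes had under 20 UMIs. In other T cells, the largest T group, Csf2rb was at 15.5 and 26.4 CPM (0.76). Csf3r passed 2-fold there, from 1.79 CPM (18 UMIs) to 4.92 CPM (72 UMIs), a ratio of 1.46 (0.70 to 2.29). Csf1r gave 0.11 (-0.22 to 0.44), Csf2ra 0.17 (-0.09 to 0.45), Csf2rb2 0.44 (-0.19 to 1.09) and Flt3 -0.75 (-1.36 to -0.15).

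The ligands did not share this pattern for the alveolar macrophage markers. Of the 64 Csf1-positive Il17a+ T cells in tamoxifen 7.81% carried at least 2 alveolar macrophage markers, against 7.04% of the Csf1-negative ones, and for Csf2 the shares were 7.69% and 7.05%. At least 2 neutrophil markers were found in 3.1% of Csf1-positive and 2.5% of Csf1-negative cells. For Csf2 these shares were 4.6%, which were 3 of 65 cells, and 2.3%. Median depths were 6691 and 5671 UMIs with and without Csf1, and 7296 and 5669.5 UMIs with and without Csf2. With barcodes of high Scrublet score removed, Csf2rb in the whole Il17a+ T gate stood at 1.34 CPM (3 UMIs) in oil and 15.5 CPM (75 UMIs) in tamoxifen, where all cells of that gate had 9.81 and 42.7 CPM, and the log2 ratio was 3.53 (1.93 to 5.84). The part of macrophage and neutrophil RNA in the receptor values of T cells was not tested. In B-like cells the 7 alveolar macrophage markers summed to 28.5 and 111 CPM, while Csf2rb stood at 28.5 and 29.3 CPM. Other receptor genes were higher in these B-like cells with tamoxifen. Csf2ra went from 15 to 49 UMIs (log2 ratio 1.01) and Flt3 from 2 to 29 (3.16), both with intervals above 0. Csf1r went from 7 to 21 UMIs (0.89), with an interval that included 0.

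**Figure D4:**
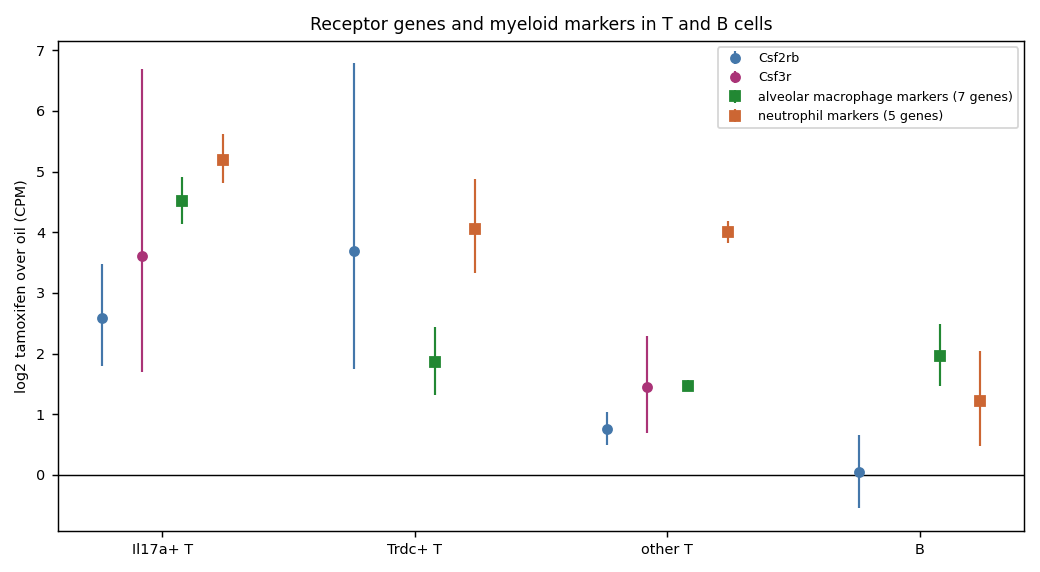
Log2 ratio of tamoxifen over oil for Csf2rb, Csf3r and the summed markers of alveolar macrophages and neutrophils in marker-supported T and B cells, with exact 95% intervals from counting error. In Il17a+ T cells all 4 values are above 2, and in B-like cells Csf2rb is at 0.04 while both marker sums are above 1; Csf3r is left out where both libraries held under 20 UMIs.

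The 27 other genes of these pathways, fixed as ligands, receptors, signalling genes and transcription factors, mostly did not pass 2-fold in marker-supported cells. Of those with enough UMIs, 0 were higher and 1 lower of 22 in alveolar macrophage-like cells (median 0.01, against 0.05 for all genes), and 0 and 0 of 22 in C1q macrophage-like cells (median -0.01, against 0.05). In cDC1-like cells 1 and 1 of 22 passed (3.82% of all genes, medians -0.05 and 0.01) and in cDC2-like cells 1 and 1 of 21 (5.69% of all genes, medians 0.07 and 0.06). Among the ligands, Kitl, the ligand of Kit, was lower in alveolar macrophage-like cells at 8.85 and 3.91 CPM (-1.18), cDC1-like cells at 3.31 and 1.12 CPM (-1.56) and cDC2-like cells at 13.7 and 3.95 CPM (-1.80). Flt3l stood at 36.4 and 31.5 CPM in other T cells (-0.21). Il34, the other ligand of Csf1r, and Csf3 and Il3 had under 20 UMIs in each marker-supported type.

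Spi1, Pparg and Cish, which lie downstream of or beside the Csf2 receptor, were close between the libraries in alveolar macrophage-like cells. Spi1 was at 355 and 364 CPM (0.04), Pparg, which encodes a lipid-sensing factor of these cells, at 146 and 137 CPM (-0.09), and Cish, a Stat5 target, at 73.4 and 73.6 CPM (0.00). Bhlhe41 was at 133 and 69.4 CPM (-0.94) and did not reach 2-fold. In Il17a+ T cells 6 of 22 were higher and 0 lower (median 0.33, against 0.12 for all genes, of which 9.5% were higher), among them Spi1 and Pparg. Spi1 had 35 UMIs in oil and 191 in tamoxifen there. ILC2-like cells had 1 higher and 2 lower of 13 (16.7% of all genes passed, medians 0.28 and -0.14). The 2 lower ones were Cish, at 89.3 CPM (96 UMIs) and 31.2 CPM (7 UMIs), and Socs3, at 35.3 CPM (38 UMIs) and 4.45 CPM (1 UMI). The higher one was Il5, with 51 UMIs in 25 of 202 cells and 181 UMIs in 9 of 60 cells, of which 1 cell held 134, and Il5 is also 1 of the markers by which these cells were chosen.

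The genes most alike in pattern over the 15 gates of both libraries (30 points, Pearson's r of log2 CPM with 1 added, 4658 genes compared) set the members apart. Csf2 was nearest to Gata3 (0.84), Skap1 (0.84) and Inpp4b (0.83), and Csf1 to G0s2 (0.83), Txnip (0.81) and Fam104a (0.80). Csf2rb was nearest to Spi1 (0.96), Plek (0.95) and Pirb (0.95), and Csf2ra to Cd300c2 (0.97), Tep1 (0.97) and Gatm (0.97). Csf1r was nearest to Dab2 (0.97), Mmp12 (0.95) and Slc29a3 (0.94), and Csf2rb2 to Pip5k1c (0.93), Alox5ap (0.91) and Pira2 (0.91). For Csf3r the nearest were Sirpb1b (0.93), Clec4e (0.92) and Clec4d (0.91), and for Flt3 Ifi205 (0.97), Cldn1 (0.96) and Epcam (0.95). Gates share cells and each library shares its depth, so these values describe the gates and carry no test.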

How the data were processed

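Single-cell RNA was measured in 2 libraries, 1 per group, with 10x Genomics 3′ chemistry, per the labels' protocols. The deposited values are raw counts of UMIs for each gene in each barcode. The authors used Cell Ranger 5.0.1 and GRCm38 (mm10), per the submitters' processing notes, with an annotation whose version was not given in the sources used here. Symbols and identifiers came from the files, gene positions from GENCODE M21 and promoters from RefSeq.

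Barcodes with at least 300 genes and under 10% mitochondrial UMIs were kept. Doublets were kept in the main values and removed by Scrublet score in an alternative (369 oil and 822 tamoxifen barcodes, at a nominal 0.8% per 1000). Gates took summed UMIs: Cd3d, Cd3e and Cd3g at least 1 for T cells, split by Il17a at least 3, then Trdc at least 1, then others; without Cd3, Il1rl1 at least 1 (ILC2) and Ncr1 and Klre1 at least 1 (NK); Krt79 and Plet1 at least 2 (alveolar macrophage); C1qa and C1qb at least 5; Xcr1 and Clec9a at least 2 (cDC1); Mgl2 and Cd209a at least 1 (cDC2); Dcn and Col1a2 at least 3 (fibroblast). Added gates took, without Cd3, Retnlg and Cxcr2 at least 2 (neutrophil), Cd79a and Ms4a1 at least 2 (B) and Fscn1 and Ccl22 at least 3 (mature dendritic), and otherwise Cpa3, Mcpt8 and Ms4a2 at least 2 and Cldn5 and Cdh5 at least 2 (endothelial). A cell could pass several gates. Marker-supported cells, with UMIs of at least 2 fixed markers of the gate, were defined after the gates had been seen.

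No test was made, since each group had 1 library. Counts carry exact Poisson intervals, shares exact Clopper-Pearson intervals and ratios exact conditional intervals at the 95% level. UMIs of 1 cell are not independent, so these intervals cover counting error only. A count of 0 was given the limit of 3 counts. Shares were also computed after thinning cells to 1500 UMIs, which left out 926 oil and 1030 tamoxifen cells. The interval step was tested on simulated counts.

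The text names all 8 members, the pathway list and the 3 genes most alike each member among those with at least 50 CPM in 1 gate of each library. The members and lists were chosen with earlier results of these data known, and 1 listed gene is not reported here by name. Python 3.11.15, numpy 2.4.6, scipy 1.17.1, pandas 2.3.3, scanpy 1.11.5 and matplotlib 3.10.9 were used.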

Additional observations from a re-analysis of the deposited data

Results flagged for a closer look

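Flt3 in the cDC2 gate went in opposite directions in cells with female-specific and with male-specific transcripts, at -0.25 and 0.38 (log2 of tamoxifen over oil). Among marker-supported cells the values were 0.17 and -1.27. Csf1 in the alveolar macrophage gate was at -0.67 in female cells and went from 3.79 to 15.2 CPM in male cells, and the ratios were -1.09 and 1.65 in the marker-supported ones. Flt3 in the same gate was at -2.22 and 0.68. Csf2ra in the cDC2 gate was at -0.14 and 0.16, and Csf1r in cDC1-like cells at 0.53 and -0.78. These differences between the sexes were not tested. Each was picked because the counting intervals of female and male cells lay on opposite sides of 0.

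Barcodes left out of the main values for holding at least 10% mitochondrial UMIs (2301 in oil and 1923 in tamoxifen with at least 300 genes) also gave higher levels with tamoxifen for 4 receptor genes. The log2 ratios there were 0.48 for Csf2ra, 0.66 for Csf2rb, 0.89 for Csf2rb2 and 0.89 for Csf3r.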

How the results depend on the processing

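No paired analysis was possible because each group had 1 library, and no library can be left out for the same reason. Removing Scrublet doublets, raising the gene minimum to 1000 or the mitochondrial limit to 25% kept each of the 11 results close to its main value. The Csf2 ratio of the Il1rl1 gate (-1.19) was -0.24 in cells of exactly 1 gate, -0.084 after thinning, -1.86 in female and -0.29 in male cells, -0.00044 in marker-supported cells (chosen after seeing the data), and -0.17 and 0.43 in their female and male cells. Csf1 in the fibroblast gate (0.94) became 0.23 and -0.029 in those female and male cells. Csf1r in the C1q gate (-0.24) was -0.54 in cells of 1 gate, -0.19 at the 5% mitochondrial limit, -0.32 under median-of-ratios scaling, and -0.13 in male and -0.12 in marker-supported male cells. In the alveolar macrophage gate Csf2ra (-0.04) was -0.22 thinned, -0.16 under median-of-ratios scaling, 0.13 in male, -0.14 in marker-supported female and 0.12 in marker-supported male cells. Csf2rb there (0.53) was 0.45 in cells of 1 gate, 0.65 thinned, 0.42 under median-of-ratios scaling, 0.17 in male, 0.35 in marker-supported, and 0.32 and 0.19 in marker-supported female and male cells, and Csf2rb2 (0.68) was 0.24 in male cells. Flt3 in the cDC1 gate (-0.02) was 0.11 in cells of 1 gate, 0.12 thinned, 0.27 in male, 0.11 in marker-supported and 0.31 in marker-supported male cells. Flt3 in the cDC2 gate (-0.00) was -0.19, -0.14, -0.25 and 0.38 in cells of 1 gate, thinned, female and male cells, and -0.32, 0.17 and -1.27 in all, female and male marker-supported cells. Csf3r in the neutrophil gate (-0.23) was 0.36 with doubled thresholds, -1.61 in male cells and -0.85 in marker-supported female cells. The 20 pairs past 2-fold became 11 in cells of 1 gate, 9 thinned, 6 in male and 5 in marker-supported male cells, of which fewer had enough UMIs. No share over all genes is given for these settings, so these counts cannot be set against one. The causes of the other differences were not tested. Male cells are few, and types with under 100 cells carry wide intervals.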
